A study of Mus musculus with 6 samples.

Results

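The blood and immune miRNAs described here are the 11 assays, of 750 miRNA assays on a pair of TaqMan Array Rodent MicroRNA cards, that are named for miR-142, miR-144, miR-146, miR-150, miR-155, miR-223 or miR-451. They were chosen by name alone, from the miRNA names of the raw Ct values, with any arm or species prefix and without the opposite-strand assays marked #. Card A held 8 of them (mmu-miR-142-3p, mmu-miR-142-5p, mmu-miR-146a, mmu-miR-146b, mmu-miR-150, mmu-miR-155, mmu-miR-223 and mmu-miR-451) and card B held 3 (hsa-miR-144, hsa-miR-223 and rno-miR-146B). Total RNA came from 3 vitrified pools (V1 to V3) and 3 fresh pools (F1 to F3) of blastocysts of Kunming mice, a Chinese outbred stock, collected from superovulated and mated females of 5 weeks of age. Vitrified blastocysts had been held for 30 seconds in a pretreatment solution of 10% ethylene glycol and 10% DMSO and for 25 seconds in the EDFS30 vitrification solution in open-pulled straws. They were plunged into liquid nitrogen and later thawed in 0.5 M sucrose for 5 minutes. Fresh blastocysts were not vitrified, and embryos of both groups were cultured in CZB medium. Each pool is a single RNA extract of many embryos, and the labels do not say whether the pools came from separate collections of mice, so p-values measure only the spread between these pools.

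A miRNA is a short RNA that guides an Argonaute protein to partly complementary messenger RNAs and lowers their output. Pairing is led by the seed, bases 2 to 8 from the 5′ end. Most miRNAs are cut from a hairpin by Drosha and then by Dicer, whereas miR-451 skips Dicer and is cut by the Argonaute protein AGO2. The miRNAs considered here are known mainly from blood. miR-451 and its neighbour miR-144 are erythroid, miR-142 is found across blood cell lineages, miR-223 is myeloid, miR-150 is abundant in mature lymphocytes, and miR-146a and miR-155 are induced in immune activation through NF-κB.

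The mature mouse sequences of 10 of the 11 assays were found by name in RefSeq (GRCm38.p6), and they stand here because the seeds and the near identity of the miR-146 pair bear on which assays can be compared. They are the mouse entries for each name, not the target sequences of the assays, and capitals mark the seed.
miR-451a: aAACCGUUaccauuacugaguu
miR-144-3p: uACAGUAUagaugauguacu
miR-142a-3p: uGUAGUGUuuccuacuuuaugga
miR-142a-5p: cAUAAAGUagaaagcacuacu
miR-223-3p: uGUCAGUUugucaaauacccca
miR-146a-5p: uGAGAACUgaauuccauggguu
miR-146b-5p: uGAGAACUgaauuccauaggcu
miR-155-5p: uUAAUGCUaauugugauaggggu

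These 8 mature miRNAs carry 7 different seeds, and only miR-146a-5p and miR-146b-5p share a seed. That pair is identical at 20 of 22 bases. Counted from the 5′ end, miR-146b-5p differs from miR-146a-5p by G18A and U21C. mmu-miR-150 was not matched. On GRCm38.p6 the Mir144 hairpin lies at chr11:78073005-78073070 and the Mir451a hairpin at chr11:78073170-78073241, both on the plus strand with 99 bases between them. Mature miR-451a takes up bases 17 to 38 of its 72-base hairpin. Mir142 lies at chr11:87756864-87756927 on the plus strand and Mir146, the gene of miR-146a, at chr11:43374397-43374461 on the minus strand. Mir155, at chr16:84714140-84714204 on the plus strand, overlaps the long noncoding host gene Mir155hg. Mir223 lies at chrX:96242817-96242926 on the plus strand and overlaps the noncoding gene F630028O10Rik. Mir146b lies at chr19:46342762-46342870 on the plus strand and overlaps the noncoding gene Gm36493.

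The measurement is the threshold cycle (Ct), the cycle of the PCR in which the fluorescence of a well first passes a fixed level. More template gives a lower Ct, and a step of 1 cycle is a step of 1 on the log2 scale. A well without a Ct is called undetermined. Of the 11 blood and immune assays, V1, V2 and V3 gave a Ct for 8, 9 and 10, and F1, F2 and F3 for 7, 10 and 10. Vitrified pools thus averaged 9 ± 1 (SD, n = 3) determined assays and fresh pools 9 ± 1.73 (SD, n = 3) (2-sided exact permutation test, p = 1.0, where the smallest possible p is 0.1). Of the 66 wells, 54 (81.8%) were determined, against 43.6% of the wells of all miRNA assays. All 6 pools gave a Ct for 7 of the 11 assays (63.6%), compared with 16.3% of all 750. The 750 include opposite-strand assays marked #, which the 11 leave out, so the sets are not alike. Only mmu-miR-146b was undetermined in every pool, as were 260 of the 750 assays. In RNA of pooled whole embryos, fewer cells of a type and less RNA per cell cannot be told apart.

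V1 and F1 stood apart from the other 4 pools. A Ct was obtained for 218 of the 750 miRNA assays in V1 and 140 in F1, against 382 to 409 in V2, V3, F2 and F3. The U6 snRNA used as the reference had a mean Ct on card A of 17.8 in V1 and 17.1 in F1 and between 16.6 and 17.1 in the others. On card B it was 17.7 in V1 and 16.9 in F1, and in the others it ran from 16.5 (V3) to 17.7 (V2). The labels give no reason for the difference. The tested blood and immune assays are therefore compared over all 6 pools and again over the pools numbered 2 and 3 alone.

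**Figure D1:**
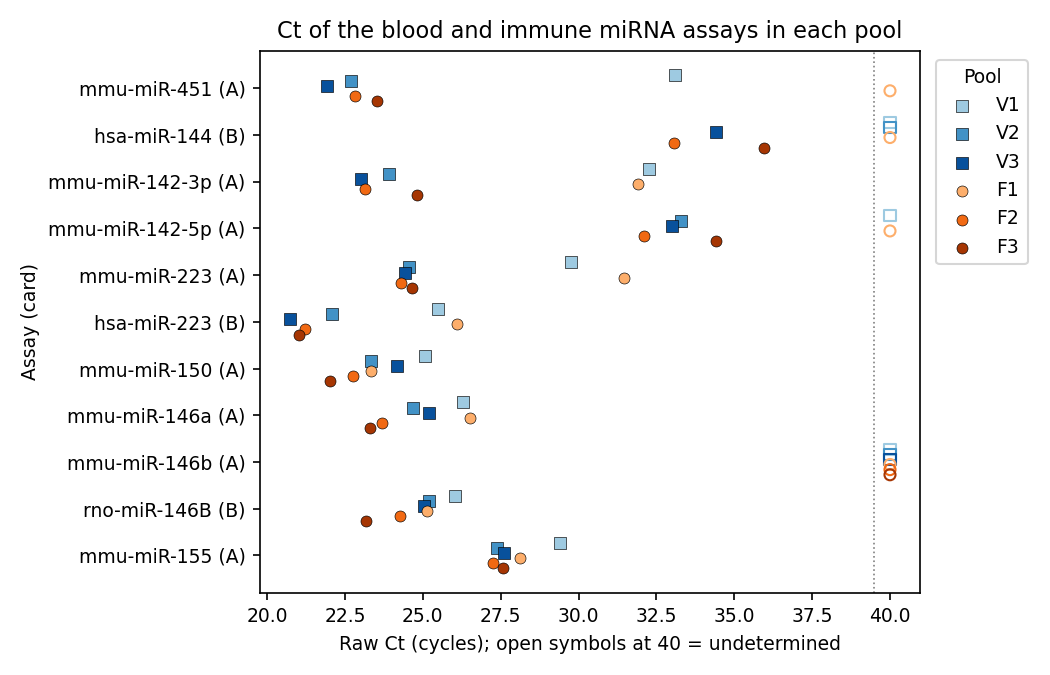
Raw Ct (x axis, cycles) of each of the 11 blood and immune miRNA assays (y axis, card in brackets) in the 6 pools, with squares for vitrified and circles for fresh pools. Open symbols at 40 stand for undetermined wells. mmu-miR-451, mmu-miR-142-3p and mmu-miR-223 have V1 and F1 far to the right of the other pools or undetermined, and mmu-miR-150 and mmu-miR-155 do not.

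The erythroid miR-451 was early in V2, V3, F2 and F3 and late or undetermined in V1 and F1. The raw Ct of mmu-miR-451 was 33.09 (V1), 22.68 (V2) and 21.91 (V3) after vitrification and 22.82 (F2) and 23.54 (F3) in fresh pools, with F1 undetermined. V1 thus trailed V2 and V3 by 10.8 cycles on average. Among the miRNA assays determined on card A, counted from the lowest Ct, it ranked 26 of 212 in V2, 10 of 234 in V3, 29 of 239 in F2 and 40 of 229 in F3, and 100 of 140 in V1. After subtraction of the mean U6 Ct of the same card and pool (ΔCt), the values were 15.27, 5.57 and 4.94 in V1, V2 and V3 and 6.23 and 6.58 in F2 and F3. The fresh values lay between V1 and the other vitrified pools. Over these 5 pools the log2 fold change of vitrified over fresh was −2.19 (standard error 3.37), and the direction was set by V1, while F1 gave no value. Over the pools numbered 2 and 3 it was 1.15 (standard error 0.60, adjusted p = 0.867 from limma), with both vitrified pools above both fresh pools (2-sided exact permutation p = 0.333, the smallest that 2 against 2 allow).

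miR-144, made from the hairpin next to that of miR-451, was near the limit of detection. The raw Ct of hsa-miR-144 was 34.41 in V3, 33.07 in F2 and 35.94 in F3, and V1, V2 and F1 were undetermined. With 1 vitrified value it entered no test, and that value lay between those of F2 and F3. In the 3 pools that determined both, its ΔCt was later than that of mmu-miR-451 by 9.89 to 12.95 cycles. PCR assays differ in efficiency, so such a gap between assays is not a ratio of molecules.

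Both arms of the miR-142 hairpin are on card A. For mmu-miR-142-3p the raw Ct was 32.27 (V1), 23.90 (V2) and 23.00 (V3) after vitrification and 31.91 (F1), 23.14 (F2) and 24.82 (F3) in fresh pools. V1 and F1 were 8.81 and 7.93 cycles later than the other pools of their group, and between groups the values were interleaved. ΔCt averaged 9.09 ± 4.65 (SD, n = 3) after vitrification against 9.75 ± 4.45 (SD, n = 3) in fresh pools, which gave a vitrified-over-fresh log2 value of 0.65 (standard error 3.05). In the pools numbered 2 and 3 it was 0.79 (standard error 0.73). The other arm, mmu-miR-142-5p, came late, at 33.30 in V2, 33.00 in V3, 32.12 in F2 and 34.41 in F3, and was undetermined in V1 and F1. Its vitrified values lay within the fresh range, and its log2 fold change was 0.37 (standard error 1.30). The 5p assay was later than the 3p assay by 8.98 to 10.00 cycles of ΔCt in these 4 pools.

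The myeloid miR-223 was measured on both cards by different assays. For mmu-miR-223 on card A the raw Ct was 29.77 (V1), 24.56 (V2) and 24.44 (V3) after vitrification and 31.45 (F1), 24.30 (F2) and 24.64 (F3) in fresh pools. For hsa-miR-223 on card B it was 25.50 (V1), 22.09 (V2) and 20.74 (V3) after vitrification and 26.10 (F1), 21.22 (F2) and 21.03 (F3) in fresh pools. On both cards V1 and F1 were the latest pools and F1 was later than V1. The card B assay was among the earliest on its card, ranking 8 of 170 determined assays in V2, 8 of 173 in V3, 6 of 170 in F2 and 8 of 176 in F3. Its ΔCt was earlier than that of the card A assay in every pool, by 3.08 (V2) to 5.15 cycles (F1), with a mean of 3.81 ± 0.76 (SD over 6 pools).

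With all pools, the log2 fold change was 0.96 (standard error 2.26) for mmu-miR-223 and 0.31 (standard error 1.82) for hsa-miR-223. In the pools numbered 2 and 3 these became 0.24 (standard error 0.55) and −0.22 (standard error 0.57). The vitrified and fresh ΔCt of mmu-miR-223 did not overlap in those 4 pools, at 7.45 and 7.47 against 7.71 and 7.69, whereas those of hsa-miR-223 did. Before subtraction of U6 the Ct values of mmu-miR-223 overlapped, at 24.56 (V2) and 24.44 (V3) against 24.30 (F2) and 24.64 (F3). Both assays of this miRNA therefore gave differences within the standard error, on opposite sides of 0 in the pools numbered 2 and 3.

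miR-150, a lymphocyte miRNA, was determined early in every pool. For mmu-miR-150 the raw Ct was 25.05 (V1), 23.33 (V2) and 24.17 (V3) after vitrification and 23.32 (F1), 22.74 (F2) and 22.02 (F3) in fresh pools. Here V1 and F1 were close to the other pools, later by 1.31 and 0.94 cycles than the rest of their groups. In F1, where 88 assays of card A were determined, this assay ranked 2, and in V1 it ranked 8 of 140. All fresh raw values lay below all vitrified ones, but after subtraction of U6 the groups met, with ΔCt of 6.24 in F1 and 6.23 in V2. ΔCt averaged 6.89 ± 0.57 (SD, n = 3) after vitrification against 5.82 ± 0.66 (SD, n = 3) in fresh pools, which gave a vitrified-over-fresh log2 value of −1.07 (standard error 0.85, 2-sided exact permutation p = 0.2). It was −1.10 (standard error 0.72) in the pools numbered 2 and 3. Between pools of the same number it was −1.0 (V1 against F1), −0.07 (V2 against F2) and −2.14 (V3 against F3), so the size of the difference varied. The labels number the pools but do not say that those of the same number belong together.

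miR-146a and miR-146b, which share a seed and restrain signalling through IRAK1 and TRAF6 in immune cells, were covered by 3 assays. The raw Ct of mmu-miR-146a was 26.30 (V1), 24.70 (V2) and 25.20 (V3) after vitrification and 26.53 (F1), 23.68 (F2) and 23.30 (F3) in fresh pools. F1 was the latest pool and F3 the earliest, so the fresh values spanned the vitrified ones. ΔCt averaged 8.11 ± 0.46 (SD, n = 3) after vitrification against 7.63 ± 1.62 (SD, n = 3) in fresh pools, which gave a vitrified-over-fresh log2 value of −0.48 (standard error 1.08). In the pools numbered 2 and 3 it was −1.20 (standard error 0.63), with both vitrified pools below both fresh pools in level. V1 against F1 went the other way, at 0.96.

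The card A assay mmu-miR-146b was undetermined in all 6 pools, whereas rno-miR-146B on card B, an assay for the rat miRNA of that name, was determined in all 6. For rno-miR-146B the raw Ct was 26.02 (V1), 25.18 (V2) and 25.05 (V3) after vitrification and 25.13 (F1), 24.27 (F2) and 23.18 (F3) in fresh pools. F3 was again the earliest pool, and F1 fell among the vitrified values. ΔCt averaged 8.12 ± 0.57 (SD, n = 3) after vitrification against 7.20 ± 1.12 (SD, n = 3) in fresh pools, which gave a vitrified-over-fresh log2 value of −0.92 (standard error 0.95, 2-sided exact permutation p = 0.2). It was −1.32 (standard error 0.77) in the pools numbered 2 and 3. The ΔCt of mmu-miR-146a minus that of rno-miR-146B lay between −0.30 (V3) and 1.20 cycles (F1), with a mean of 0.21 ± 0.54 (SD over 6 pools). Whether rno-miR-146B also detects miR-146a, which differs from mouse miR-146b-5p at 2 bases outside the seed, was not tested.

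miR-155 is induced in activated lymphocytes and macrophages. Against U6, it had the narrowest range of ΔCt over all 6 pools among the 7 assays determined in all of them, whereas in V2, V3, F2 and F3 mmu-miR-223 ranged less. The raw Ct of mmu-miR-155 was 29.40 (V1), 27.37 (V2) and 27.61 (V3) after vitrification and 28.11 (F1), 27.24 (F2) and 27.58 (F3) in fresh pools. V1 was the latest pool and the other 5 lay within a cycle of each other. ΔCt averaged 10.83 ± 0.68 (SD, n = 3) after vitrification against 10.77 ± 0.23 (SD, n = 3) in fresh pools. The log2 fold change was −0.06 (standard error 0.82), with a 95% interval from limma of −2.05 to 1.93. In the pools numbered 2 and 3 it was 0.18 (standard error 0.56, 95% interval −1.26 to 1.63).

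The 7 assays determined in all 6 pools differed in how far V1 and F1 departed from the other pools. The mean ΔCt of V1 and F1 minus that of V2, V3, F2 and F3 was 7.83 cycles for mmu-miR-142-3p, 5.58 for mmu-miR-223 and 4.34 for hsa-miR-223. It was 1.65 for mmu-miR-146a, 0.97 for rno-miR-146B, 0.76 for mmu-miR-155 and 0.58 for mmu-miR-150. Over all assays determined in all pools the median was 4.71 cycles on card A (80 assays) and 1.84 on card B (42 assays). On card A, mmu-miR-150 ranked 9 of 80 from the smallest departure, mmu-miR-155 ranked 12, mmu-miR-146a 16, mmu-miR-223 46 and mmu-miR-142-3p 70. mmu-miR-451, which could not be ranked because F1 was undetermined, was 10.8 cycles later in V1 than in V2 and V3, beyond mmu-miR-142-3p at 8.81. Since V1 and F1 are 1 pool of each group, this departure is a description of these pools and not of vitrification. The spread also depended on U6. Against the mean of the other small RNA controls, the log2 fold change's standard error rose from 0.82 to 3.40 (mmu-miR-155) and from 0.85 to 3.45 (mmu-miR-150). It also rose from 1.08 to 2.98 (mmu-miR-146a) and from 0.95 to 3.13 (rno-miR-146B). It fell from 3.05 to 1.11 (mmu-miR-142-3p) and from 2.26 to 1.51 (mmu-miR-223), and stayed at 1.82 for hsa-miR-223.

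**Figure D2:**
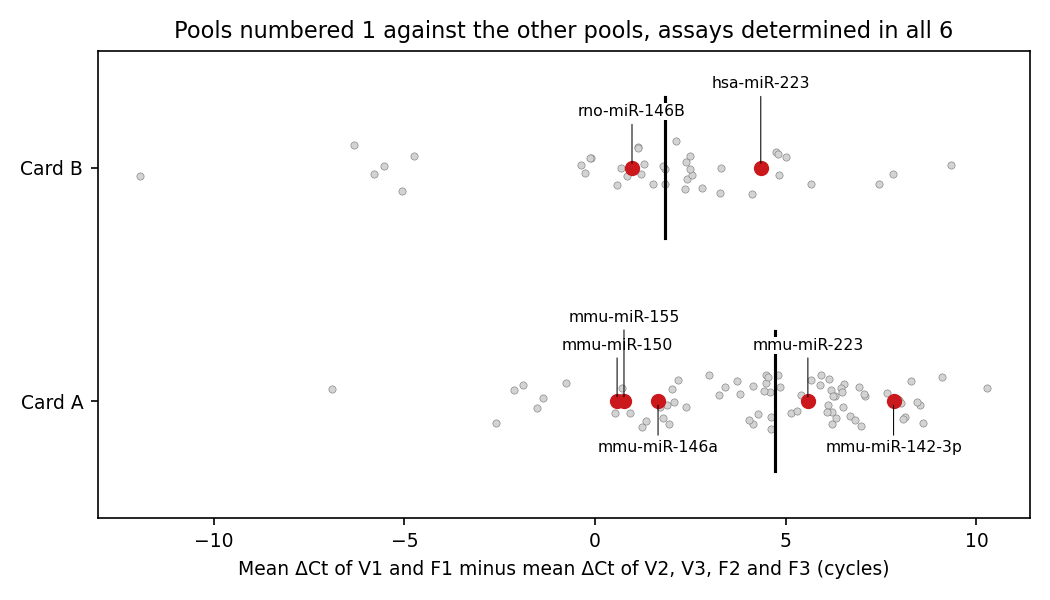
Mean ΔCt of V1 and F1 minus the mean of the other 4 pools (x axis, cycles) for every miRNA assay determined in all 6 pools, by card (y axis, with random jitter). Grey points are the other assays, red points are blood and immune miRNAs, and black bars are the card medians of 4.71 (card A) and 1.84 (card B). mmu-miR-150, mmu-miR-155, mmu-miR-146a and rno-miR-146B lie below their card's median and the miR-223 and miR-142-3p assays above it.

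The comparison of vitrified with fresh blastocysts asked whether vitrification altered the level of these miRNAs. A limma model was fitted to the 335 miRNA assays determined in at least 2 vitrified and at least 2 fresh pools, and 9 of the 11 blood and immune assays met this rule. None of the 9 was called, with 0 at an adjusted p-value under 0.05 and 0 at an unadjusted p-value under 0.05, against 0.0% and 0.299% of all 335 assays. The adjusted p from limma was 0.998 for each of the 9. Of these, 4 were higher in vitrified blastocysts and 5 lower, with a median log2 fold change of −0.06, compared with 48.1% higher and a median of −0.05 over all assays tested. Standard errors ranged from 0.82 (mmu-miR-155) to 3.37 (mmu-miR-451), and the 95% interval of each of the 9 spanned 0. The 2-sided exact permutation p was lowest, at 0.2, for mmu-miR-150 and rno-miR-146B. It was 0.5 for mmu-miR-223, 0.6 for mmu-miR-142-3p and mmu-miR-146a, and 0.9 for mmu-miR-155 and hsa-miR-223. For mmu-miR-142-5p and mmu-miR-451 it was higher still.

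In the pools numbered 2 and 3 alone the standard errors of the 9 assays fell to between 0.55 and 0.82. None had an unadjusted p-value under 0.05, compared with 4.91% of the 326 assays tested, and adjusted p-values from limma ranged from 0.867 to 0.937. In level against U6, the vitrified pools lay above both fresh pools for 2 of the 9 (mmu-miR-451 and mmu-miR-223, against 18.1% of all assays). They lay below both for 3 (mmu-miR-150, mmu-miR-146a and rno-miR-146B, against 10.7% of all assays). In the last 3, V3 and F3 differed by more than V2 and F2. The log2 fold change from V3 and F3 was −1.89 for mmu-miR-146a, −2.51 for rno-miR-146B and −2.14 for mmu-miR-150, against −0.51, −0.13 and −0.07 from V2 and F2. For rno-miR-146B, the mean U6 Ct subtracted was 17.7 in V2, 16.9 in F2, 16.5 in V3 and 17.2 in F3. Before this subtraction its Ct was 25.18 in V2 against 24.27 in F2, and 25.05 in V3 against 23.18 in F3.

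**Figure D3:**
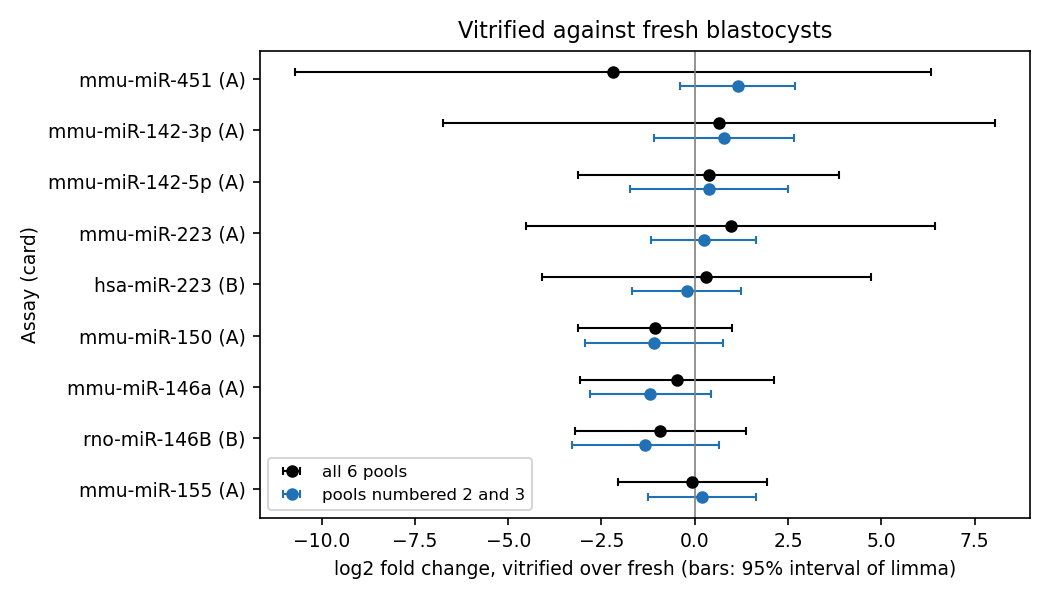
Log2 fold change of vitrified over fresh blastocysts (x axis) for the 9 blood and immune miRNA assays tested (y axis, card in brackets), over all 6 pools (black) and over the pools numbered 2 and 3 (blue). Points are limma estimates and bars their 95% intervals, all of which span 0. mmu-miR-451 moves from −2.19 to 1.15 between the fits.

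Other miRNAs known from blood, macrophages or endothelium (miR-126, miR-147, miR-342 and miR-486) were covered by 6 assays, of which 4 were tested and 0 passed the threshold on the adjusted or the unadjusted p-value. The raw Ct of mmu-miR-486, an erythroid miRNA, was 26.62 (V1), 23.31 (V2) and 23.70 (V3) after vitrification and 24.97 (F1), 22.60 (F2) and 22.70 (F3) in fresh pools, a log2 fold change of −0.70 (standard error 1.12). V1 and F1 were the latest pools here too, V1 by far less than for mmu-miR-451. For mmu-miR-126-3p, an endothelial miRNA, the raw Ct was 27.55 (V1), 21.10 (V2) and 22.42 (V3) after vitrification and 28.67 (F1), 21.97 (F2) and 20.04 (F3) in fresh pools (log2 fold change 0.29, standard error 2.56). The lymphoid and myeloid mmu-miR-342-3p ran differently, with a raw Ct of 26.17 (V1), 27.75 (V2) and 29.64 (V3) after vitrification and 25.06 (F1), 27.32 (F2) and 25.95 (F3) in fresh pools (log2 fold change −1.32, standard error 1.40). V1 was the earliest vitrified pool and F1 the earliest fresh pool. Over the pools numbered 2 and 3 the log2 fold change was −0.59 for mmu-miR-486, −0.49 for mmu-miR-126-3p and −1.79 for mmu-miR-342-3p. For mmu-miR-126-5p, undetermined in V1 and F1, it was −0.52. mmu-miR-147, induced in macrophages by Toll-like receptor ligands, was determined only in F2 and F3, at 34.73 and 34.49.

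The labelled cell type was checked against the miR-290 to miR-295 cluster, which marks pluripotent cells and the early mouse embryo. Of its 14 assays, 0 were determined in V1 and F1, 7 in V2, 9 in V3, 9 in F2 and 7 in F3, and 4 were determined in no pool. The earliest of them, mmu-miR-292-3p on card A, had a Ct of 25.47 in V2, 23.04 in V3, 23.07 in F2 and 24.90 in F3. The defining embryonic miRNAs were therefore absent from the determined wells of V1 and F1, while mmu-miR-150, mmu-miR-155, mmu-miR-146a, mmu-miR-142-3p and mmu-miR-223 were determined there.

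Levels were also summed over lists of assays as 2 to the power of −ΔCt, in percent of U6, with undetermined wells as 0. For the white blood cell list (miR-142, miR-150, miR-155 and miR-223, 6 assays) the sum was 1.16% (V1), 7.72% (V2) and 8.20% (V3) after vitrification and 1.55% (F1), 8.15% (F2) and 10.8% (F3) in fresh pools. For the red blood cell list (miR-144, miR-451 and miR-486, 3 assays) it was 0.226%, 3.45% and 4.20% in V1, V2 and V3, and 0.423%, 2.88% and 2.91% in F1, F2 and F3. The embryonic list summed to 0.550% in V2, 2.51% in V3, 2.09% in F2 and 0.666% in F3. These sums add assays of different efficiency, so levels of different lists are not compared. miR-223 enters the white blood cell list by both of its assays, and hsa-miR-223 alone made up 62.6% (V2), 65.4% (V3), 63.0% (F2) and 63.2% (F3) of that sum, against 37.5% in V1 and 10.9% in F1. All 6 assays of the white blood cell list and 2 of the 3 of the red blood cell list are among the 11 described here.

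Stromal and endothelial markers moved between the same pools, whereas the sum of the ciliated oviduct list (miR-449, 3 assays) did not fall in V1 or F1. This sum was 0.969% of U6 in V1, 0.0728% in F1 and between 0.0666% and 0.0799% in V2, V3, F2 and F3. It rested mostly on mmu-miR-449a, which came earlier than mmu-miR-449b of card B in every pool. The card B assay did not follow the sum in F1, its latest pool at 33.03, against 29.08 (V3) to 31.09 (F2) elsewhere. The remaining assay was undetermined throughout. The smooth muscle and stroma list (miR-143 and miR-145, 3 assays) summed to between 0.0647% (V1) and 8.96% (V2) of U6 in vitrified pools, against 0.0253% (F1), 4.60% (F2) and 39.3% (F3) in fresh pools. The endothelial list (miR-126, 2 assays) ranged from 0.117% to 7.56% in vitrified pools and from 0.0324% to 13.9% in fresh pools, again highest in F3. F3 was also the pool with the lowest ΔCt of mmu-miR-150, mmu-miR-146a and rno-miR-146B. All 3 stromal and both endothelial assays were determined in V2, V3, F2 and F3. The part of these markers in the differences of the blood and immune miRNAs was not tested.

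**Figure D4:**
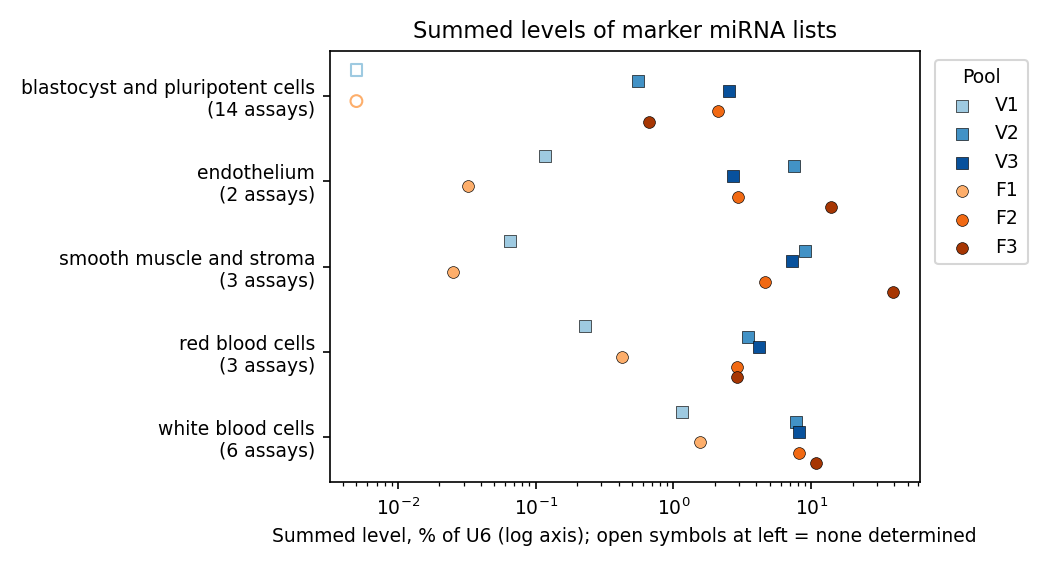
Summed level of 5 lists of marker miRNAs (y axis, with the number of assays) in each pool, as a percentage of U6 on a log axis, with squares for vitrified and circles for fresh pools. Open symbols at the left edge mark V1 and F1, in which no assay of the embryonic list was determined. The white blood cell list lies between 7.72% and 10.8% in V2, V3, F2 and F3, and the stromal list spans 4.60% to 39.3% in the same pools.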

How the data were processed

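From 30 ng of total RNA of each pool, the authors made and pre-amplified cDNA, ran 40 cycles of PCR on cards A and B of the TaqMan Array Rodent MicroRNA set, took the Ct from RQ Manager and deposited raw Ct values of 768 wells per pool. They also deposited fold changes of vitrified over fresh blastocysts, which were not used here. Samples were grouped by title. A Ct of 40 or more, or an undetermined well, was excluded, and ΔCt was taken against the mean of the 4 U6 wells of the same card and pool, as in the study's methods. Assays with at least 2 values per group were fitted on −ΔCt with lmFit and eBayes (limma 3.58.1, R 4.3.3) and p-values were adjusted by the Benjamini-Hochberg method over all miRNA assays tested. Single assays and counts were compared with 2-sided exact permutation tests (scipy 1.17.1, Python 3.11.15). Arrays of PCR wells have no read depth, and precision rests on the number of pools and the spread between them.

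Every assay of the rule is named. These assays, the lists and the tests were chosen with earlier results of these data known, and the fit over the pools numbered 2 and 3 was added after seeing the data. Assay names without an arm were matched to the predominant mouse arm. The assays most similar in profile, which had been planned, are not given because V1 and F1 stand apart and a correlation over all pools would rest on them. Over the assays determined in all 6 pools, pools of the same number deviated together from their group means. Correlations across assays were 0.80 (number 1), 0.78 (number 2) and 0.67 (number 3). These values are not independent, because departures from a mean of 3 pools cancel out. The distance of V1 and F1 from the rest thus also enters the values for numbers 2 and 3. Among the pools numbered 2 and 3 alone the correlation was −0.35 over 326 assays. The alternatives were 3 other references, a limit of 35 cycles, 2 fills for undetermined wells, assays determined in all pools, the replicate block, each pool left out, the methods' t-test and a variance trend.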

Additional observations from a re-analysis of the deposited data

How the results depend on the processing

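None of the blood and immune miRNAs had an adjusted or an unadjusted p-value under 0.05 in any of the 17 alternative fits, and the lowest adjusted p among them was 0.836. Of the alternative log2 fold changes, 60 equalled the value reported, since those settings could not move it, and of the 85 that moved 21 reversed direction. With the mean of the other small RNA controls as the reference, which moved the median of all assays from −0.05 to −0.78, the log2 fold change became −1.21 for mmu-miR-142-3p, −0.44 for mmu-miR-142-5p, −0.90 for mmu-miR-223 and −1.07 for hsa-miR-223. The median was −0.35 without a reference and 0.12 with the global mean. mmu-miR-451 became 3.32 with undetermined wells set to 40 cycles, 1.65 with a ceiling of 35, and 1.15 with the replicate block and over the pools numbered 2 and 3. These fits give F1 a value or leave out V1. Over the pools numbered 2 and 3 mmu-miR-155 was 0.18 and hsa-miR-223 was −0.22. The replicate block could not move the log2 fold change of the other assays, which had a vitrified and a fresh value for each number used. It changed no call. With each pool left out in turn, mmu-miR-142-3p ranged from −1.89 (without F1) to 3.33 (without V1) and was also negative without V2 or V3, mmu-miR-223 from −1.26 (without F1) to 2.46, and hsa-miR-223 from −1.40 (without F1) to 1.49, also negative without V2 or V3. mmu-miR-451 ranged from −4.01 to 1.15 (without V1), mmu-miR-146a from −1.39 to 0.16 (without F3), and mmu-miR-155 from −0.34 to 0.31 (without V1), also above 0 without F3. mmu-miR-150 (−2.93 to −0.69) and rno-miR-146B (−2.30 to −0.33) were lower in vitrified blastocysts in the 10 fits that moved their value. The count of determined wells of the blood and immune assays differed between groups by 0.333 with a limit of 35 cycles and by −1 to 0.5 with each pool left out. The replicate block cannot change this difference, which stayed at 0. Wells later than 35 cycles, such as hsa-miR-144 in F3, are near the limit of detection, and mmu-miR-146b gave no value under any setting.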

Other observations

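Of the 2 opposite-strand assays with these numbers, mmu-miR-150# was undetermined in all 6 pools, and mmu-miR-146b# was determined only in F2, at a Ct of 32.91, and in F3, at 36.67. These wells were in 2 of the 3 fresh pools and none was in a vitrified pool, which was not tested.

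miRNAs that mark other tissues were determined beside those of blood. The neuronal mmu-miR-124 had a Ct of 25.87 in V2, 26.72 in V3, 27.96 in F2 and 28.22 in F3 and was undetermined in V1 and F1, which gave a vitrified-over-fresh log2 value of 2.06 with a standard error of 1.17 over 2 pools of each group (limma adjusted p = 0.998). mmu-miR-133a, from muscle, was determined in all pools, at 30.23 (V1), 24.80 (V2), 25.45 (V3), 30.34 (F1), 25.12 (F2) and 23.01 (F3). The muscle assays mmu-miR-1 and rno-miR-1 were undetermined in V1 and F1. In V2, V3, F2 and F3 they lay between 27.53 and 28.42 (mmu-miR-1) and between 26.34 and 27.71 (rno-miR-1). The liver miRNA mmu-miR-122 was determined only in V3, at 32.87, and in F2, at 32.85. mmu-miR-449a, found in ciliated epithelium such as that of the oviduct, was earliest in V1, at 24.52, and lay between 26.98 and 27.94 in the other 5 pools. In contrast, mmu-miR-449b on card B was earliest in V3, at 29.08, with 30.71 in V1 and 33.03 in F1. It lay between 30.63 and 31.09 in V2, F2 and F3. The mmu-miR-449b assay on card A was undetermined in every pool.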
